A study of Homo sapiens with 12 samples.

Results

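The cytosolic heat shock genes described here are 10 genes named by the rule that chose them, with earlier results of these data known: the transcription factor HSF1, the HSP70 genes HSPA1A, HSPA1B and HSPA8, the HSP110 gene HSPH1, the J-domain co-chaperone DNAJB1, the HSP90 genes HSP90AA1 and HSP90AB1, the small heat shock gene HSPB1 and the co-chaperone BAG3. Their symbols were matched to 10 of the 60675 gene IDs of the count table, and 10 of 10 passed the filter on low counts, as did 15374 genes in all. The libraries came from HT29, a human colorectal adenocarcinoma cell line, kept for 24 h with a water extract of *Aconitum carmichaeli* Debeaux (ACD), a root used as an herbal medicine, or with the vehicle. The groups were the vehicle (PBS with 2% DMSO) and ACD at 20 µg/mL (low dose), 100 µg/mL (medium dose) and 500 µg/mL (high dose), with 3 libraries each. The extract was dissolved in the same mixture of PBS and DMSO. The doses are those in the medium, whereas 2% is the DMSO of the solution added to it, so the cells were in less. A single cell line was used, and the labels do not say whether replicates came from separate cultures, so p-values measure only the spread between these libraries, which may be technical.

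Heat shock proteins are chaperones: they bind unfolded or newly made proteins, keep them from clumping and help them fold. When unfolded proteins build up in the cytosol, HSF1 is freed from the chaperones that hold it inactive, forms trimers and binds heat shock elements in the promoters of chaperone genes, which are repeats of the letters GAA and TTC in alternating orientation. HSPA8, HSP90AB1 and HSF1 are made in most cells at rest, whereas HSPA1A, HSPA1B, DNAJB1, HSPH1, HSPB1 and BAG3 are classical targets whose RNA rises strongly and early after heat, and epithelial tumour lines often keep these chaperones at a high level.

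With 500 µg/mL of ACD, edgeR called HSPB1 lower and no other gene of the 10, where it called 5.77% of all genes tested. The HSPB1 call was lost in 11 of 25 alternative analyses, and without vehicle replicate 1 its log2 fold change went from −0.44 to −0.29 (adjusted p = 0.0575, edgeR). DESeq2 on all libraries called 4 more of the 10 higher (HSPA1B, HSPA8, HSPH1 and DNAJB1), with 8.46% of all genes called. Without high-dose replicate 2, edgeR called HSPA1A, HSPA1B, HSPH1 and DNAJB1 higher, where it called 18.7% of all genes. HSPA1B, HSPA8, HSPH1 and DNAJB1 lay in every high-dose library above every vehicle library, as did 10.5% of all genes. These 4 were at 1.13 to 1.24 times the vehicle in the fit, with adjusted p-values from 0.0983 to 0.137 in edgeR. The upper end of the 95% interval of the fold change stayed under 1.5 for 10 of 10 genes, the highest being 1.46 for HSPA8. The lower end for HSPB1 was 0.63, past a 1.5-fold fall. These intervals use a spread estimated over all groups together, while the CV of HSPA8 was 17.2% at the high dose and 2.74% with vehicle. HSF1 itself had a log2 fold change of −0.04.

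Promoter sequences around matches to the heat shock element are shown because HSF1 binds elements of this kind. Of the 10 genes, 9 were in the RefSeq promoter table for GRCh38.p14, which holds 250 bases before and 50 bases after each start site. HSF1 was not among them. Only the 250 bases before each start site were searched, on both strands. There an element of alternating units, GAANNTTC or TTCNNGAA, was found in 7 of the 9 genes, where 14.0% of the 27305 genes of the table had one. A run of 3 alternating units, GAANNTTCNNGAA or TTCNNGAANNTTC, which contains the shorter element, was found in HSPA8, HSP90AA1 and HSP90AB1, and in 0.6% of all genes. Each sequence is written on the strand of its gene, with the element in capitals and 12 bases on either side, and all elements found are shown.
HSPA1A, chr6:31815425-31815456, plus strand: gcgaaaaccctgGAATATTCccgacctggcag
HSPA1B, chr6:31827621-31827652, plus strand: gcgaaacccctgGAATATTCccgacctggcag
HSPA8, chr11:123062342-123062378, minus strand: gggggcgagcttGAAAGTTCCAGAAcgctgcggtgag
HSPA8, chr11:123062167-123062203, minus strand: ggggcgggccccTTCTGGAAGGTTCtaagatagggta
DNAJB1, chr19:14518455-14518486, minus strand: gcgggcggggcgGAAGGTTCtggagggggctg
DNAJB1, chr19:14518425-14518456, minus strand: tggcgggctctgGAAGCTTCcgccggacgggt
HSP90AA1, chr14:102087108-102087144, minus strand: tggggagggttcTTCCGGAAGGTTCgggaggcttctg
HSP90AA1, chr14:102087093-102087124, minus strand: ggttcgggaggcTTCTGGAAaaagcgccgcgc
HSP90AB1, chr6:44247766-44247802, plus strand: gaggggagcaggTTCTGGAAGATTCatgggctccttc
HSP90AB1, chr6:44247819-44247855, plus strand: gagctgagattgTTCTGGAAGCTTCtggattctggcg
HSPB1, chr7:76302479-76302510, plus strand: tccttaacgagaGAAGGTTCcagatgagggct
The elements of HSPA1A and HSPA1B carry the same letters and begin at −106 and −105 from their start sites. HSPA8 has its elements at −230 and −55, HSP90AB1 at −165 and −112, HSP90AA1 at −88 and −68, and DNAJB1 at −77 and −47. The last 3 genes have several start sites, and these positions are from those at chr6:44247943, chr14:102087044 and chr19:14518397. The 250 bases before their other start sites held no element. These sites were chr6:44246194 and chr6:44247101 for HSP90AB1, chr14:102139749 for HSP90AA1, and chr19:14529271 and chr19:14517937 for DNAJB1. That of HSPB1 begins at −182. The searched bases of HSPH1 and BAG3 held no run of these letters, which says nothing of elements elsewhere or of other spelling. The 50 bases after each start site were not searched. A match is a description of the letters, and binding of HSF1 was not measured.

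With the vehicle alone the 10 genes spanned a wide range. Levels were compared between genes as CPM, the count scaled to the size of its library, per kilobase of all exons of a gene. This scale is meant to take out gene length and depends on the length used. In the vehicle libraries HSP90AB1, the constitutive HSP90, stood first at 591 ± 27.6 CPM per kilobase (SD, n = 3), and HSPA8, the constitutive HSP70, followed at 412 ± 11.3. HSP90AA1, the stress-inducible HSP90, was at 188 ± 18.8. The next genes were HSPA1B at 81.0 ± 2.69, HSPB1 at 76.5 ± 13.7 and HSPA1A at 73.1 ± 2.06 CPM per kilobase. On this scale HSPB1 did not differ from its neighbours beyond its spread. HSPH1 was at 42.9 ± 1.40, HSF1 at 18.7 ± 1.34, BAG3 at 13.7 ± 0.368 and DNAJB1 at 11.5 ± 0.267. These levels lay between the 75.8th and the 99.7th percentile of 15196 genes. The order of the top pair turned with the length used: per kilobase of the longest transcript HSPA8 was at 867 and HSP90AB1 at 658. So did the order of the last pair, with DNAJB1 at 21.9 and BAG3 at 14.6 on that scale, and that of HSPB1 (85.3) and HSPA1B (81.0). Per kilobase of the main (canonical) transcript HSPB1 was at 160, well above HSPA1B at 81.0 and HSPA1A at 73.2. DNAJB1 was at 41.8 and BAG3 at 14.6 on that scale, so the places of HSPB1 and DNAJB1 depend on the length.

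HSF1 is the regulator of the group. It measured 107, 94.1 and 95.8 CPM in the vehicle libraries, 92.9, 102 and 88.3 with 20 µg/mL, 102, 92.2 and 99.2 with 100 µg/mL and 108, 74.0 and 107 with 500 µg/mL. The groups overlapped at every dose, and high-dose replicate 2 was the lowest of the 12 libraries. The log2 fold change at the high dose was −0.04 (SE 0.13, 95% interval −0.31 to 0.23, adjusted p = 0.913, edgeR quasi-likelihood test with Benjamini-Hochberg adjustment over all genes). Without high-dose replicate 2 it was 0.12, with an adjusted p of 0.261 in the same edgeR test. HSF1 is switched on mainly by a change of its protein, which RNA libraries do not show.

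HSPA1A and HSPA1B encode nearly the same inducible HSP70 protein and lie next to each other on chromosome 6 (GRCh38 chr6:31815543-31817946 and chr6:31827738-31830254). Of all stretches of 100 bases in the main transcript of HSPA1A, 72.4% are also in HSPA1B, so the split of reads between them is uncertain, and RSEM shares such reads out by estimation. HSPA1A held 43.1% to 47.6% of the counts of the pair in the 12 libraries. HSPA1A measured 181, 174 and 172 CPM in the vehicle libraries, 158, 190 and 180 with 20 µg/mL, 193, 179 and 186 with 100 µg/mL and 214, 172 and 205 with 500 µg/mL. The high-dose and vehicle libraries overlapped through high-dose replicate 2. HSPA1B measured 210, 205 and 197 CPM with vehicle, 208, 221 and 208 with 20 µg/mL, 224, 218 and 235 with 100 µg/mL and 251, 225 and 225 with 500 µg/mL. Here the medium-dose and high-dose libraries lay above all vehicle libraries, and the low-dose libraries overlapped with them.

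In edgeR on all libraries neither gene passed the test, while DESeq2 called HSPA1B (log2 fold change 0.20, adjusted p = 0.0271) and not HSPA1A (adjusted p = 0.333). At 500 µg/mL the log2 fold change was 0.17 (SE 0.09, adjusted p = 0.349, edgeR) for HSPA1A and 0.20 (SE 0.07, adjusted p = 0.129, edgeR) for HSPA1B. Summed to one feature, the pair was at 380 ± 11.4 CPM (SD, n = 3) with vehicle, 389 ± 22.5 with 20, 412 ± 12.5 with 100 and 431 ± 34.4 with 500 µg/mL. The sum had a log2 fold change of 0.18 at the high dose, with a 95% interval of 0.01 to 0.35 and an adjusted p of 0.211 in edgeR. Without high-dose replicate 2, the log2 fold change was 0.25 for HSPA1A (adjusted p = 0.0156, edgeR) and 0.23 for HSPA1B (adjusted p = 0.0161, edgeR), both past the threshold.

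HSPA8 (chr11:123057489-123063230), the HSP70 that cells make at rest for folding, uncoating of vesicles and chaperone-mediated autophagy, is the HSP70 gene with the highest level here. It measured 1991, 1950 and 2058 CPM in the vehicle libraries, 2023, 2024 and 2163 with 20 µg/mL, 2187, 2073 and 2167 with 100 µg/mL and 2228, 2961 and 2222 with 500 µg/mL. The high-dose libraries lay above all vehicle and all low-dose libraries, and replicate 2 stood far above the other high-dose libraries. Its log2 fold change at this dose was 0.30 (SE 0.11, 95% interval 0.07 to 0.54, adjusted p = 0.137, edgeR), the largest upward value of the 10 genes, and 0.15 without replicate 2 (adjusted p = 0.0861, edgeR), where HSPA1A, HSPA1B, HSPH1 and DNAJB1 lay above it. DESeq2 called HSPA8 (adjusted p = 0.0479). The ratio of HSPA8 to the sum of HSPA1A and HSPA1B was 7.46 in that library and between 4.78 and 5.58 in the other 11.

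HSPH1 (chr13:31134973-31162388), an HSP110 protein that recharges HSP70 by exchanging its nucleotide, was among the steadiest of the genes. It measured 347, 367 and 367 CPM in the vehicle libraries, 355, 353 and 359 with 20 µg/mL, 376, 391 and 369 with 100 µg/mL and 399, 425 and 416 with 500 µg/mL. The medium-dose and high-dose libraries lay above all vehicle and all low-dose libraries. The log2 fold change was 0.20 at the high dose (SE 0.06, 95% interval 0.06 to 0.34, adjusted p = 0.0983 in edgeR and 0.000756 in DESeq2), 0.07 with 100 µg/mL and −0.02 with 20 µg/mL. It was 0.22 at the high dose against the low dose (adjusted p = 0.106, edgeR). Without high-dose replicate 2, HSPH1 passed in both comparisons, with log2 fold changes of 0.18 (adjusted p = 0.0316, edgeR) and 0.20 (adjusted p = 0.0368, edgeR).

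DNAJB1 (chr19:14514769-14560391), the HSP40 that delivers substrates to HSP70 and starts its ATPase, measured 96.0, 93.7 and 91.6 CPM in the vehicle libraries, 101, 99.3 and 95.9 with 20 µg/mL, 106, 101 and 100 with 100 µg/mL and 105, 109 and 105 with 500 µg/mL. The medium-dose and high-dose libraries lay above all vehicle libraries, and the low-dose libraries overlapped with them only through replicate 3. The group means were 93.8 ± 2.19, 98.8 ± 2.71, 102 ± 2.97 and 106 ± 2.27 CPM (SD, n = 3) from vehicle to high dose. Its log2 fold change with 500 µg/mL was 0.18 (SE 0.06, 95% interval 0.05 to 0.30, adjusted p = 0.106 in edgeR and 0.00921 in DESeq2), and 0.16 without high-dose replicate 2, just past the threshold (adjusted p = 0.0469, edgeR). After heat, DNAJB1 is one of the most strongly induced of these genes, and its RNA rises early. Libraries were made at 24 h only, where its interval ended at a fold change of 1.23. An earlier rise was not tested.

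The HSP90 proteins hold kinases and hormone receptors in a form ready for activation, and keep HSF1 inactive at rest. HSP90AA1 (chr14:102080742-102139699) measured 1067, 925 and 886 CPM in the vehicle libraries, 883, 901 and 889 with 20 µg/mL, 934, 991 and 931 with 100 µg/mL and 933, 1326 and 949 with 500 µg/mL. HSP90AB1 (chr6:44246166-44253888) measured 1831, 1670 and 1782 CPM with vehicle, 1698, 1756 and 1862 with 20 µg/mL, 1773, 1800 and 1808 with 100 µg/mL and 1705, 2151 and 1777 with 500 µg/mL. In both genes the high-dose and vehicle libraries overlapped, and high-dose replicate 2 was the highest of the 12 libraries. The log2 fold changes at the high dose were 0.16 for HSP90AA1 (SE 0.13, adjusted p = 0.549, edgeR) and 0.09 for HSP90AB1 (SE 0.10, adjusted p = 0.658, edgeR). Without that library they were −0.03 and −0.02. The ratio of HSP90AB1 to HSP90AA1 in CPM was 1.62 in high-dose replicate 2 and between 1.72 and 2.09 in the others.

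HSPB1 (chr7:76302673-76304295) encodes HSP27, a small heat shock protein that binds unfolding proteins without ATP and also acts on actin filaments. It measured 149, 116 and 107 CPM in the vehicle libraries, 98.6, 108 and 102 with 20 µg/mL, 95.9, 98.1 and 103 with 100 µg/mL and 95.1, 87.4 and 91.0 with 500 µg/mL. All high-dose libraries lay below all vehicle and all low-dose libraries, and the medium-dose libraries also lay below all vehicle libraries. Vehicle replicate 1 was the highest of the 12. The group means were 124 ± 22.3, 103 ± 4.82, 98.9 ± 3.39 and 91.2 ± 3.87 CPM (SD, n = 3). HSPB1 fell by 0.44 on the log2 scale at the high dose (SE 0.11, 95% interval −0.67 to −0.21, adjusted p = 0.0291, edgeR), to 0.74 times the vehicle, short of the 1.5-fold limit that the study's methods set for DEGs, which 2.93% of all genes met. The log2 fold change was −0.33 at the medium dose (adjusted p = 0.232, edgeR) and −0.27 at the low dose (adjusted p = 0.548, edgeR). At the high dose against the low dose it was −0.17 (adjusted p = 0.450, edgeR).

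The call for HSPB1 was close to the threshold. Over 25 alternative analyses the log2 fold change at the high dose lay between −0.53 and −0.26, and 11 of them lost the call, among them edgeR on only these 2 groups (adjusted p = 0.237). The adjusted p of the edgeR test was 0.0575 without vehicle replicate 1, 0.0599 without vehicle replicate 2, 0.0513 without low-dose replicate 3, 0.0539 and 0.0522 without medium-dose replicates 2 and 3, and 0.0540 and 0.0794 without high-dose replicates 1 and 3. Without vehicle replicate 1 the log2 fold change was −0.29. The exons of HSPB1 cover 1623 bases, and in vehicle replicate 1 the 25% of genes with the shortest exon length lay above the other vehicle libraries by a median of 0.16 on the log2 scale, while HSPB1 lay 0.42 above them. With an offset for gene length in each library, HSPB1 was at −0.34 (adjusted p = 0.0495, edgeR).

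BAG3 (chr10:119651380-119677819), which binds HSP70 and hands damaged proteins to autophagy, was the lowest of the 10 genes in CPM. It measured 36.5, 37.1 and 38.5 CPM in the vehicle libraries, 40.5, 40.1 and 32.3 with 20 µg/mL, 46.3, 37.2 and 39.6 with 100 µg/mL and 40.3, 30.9 and 39.1 with 500 µg/mL. The libraries of the groups overlapped at every dose. The log2 fold change was −0.02 at the high dose (SE 0.12, 95% interval −0.28 to 0.24, adjusted p = 0.963, edgeR) and 0.13 at the medium dose (adjusted p = 0.722, edgeR). Without high-dose replicate 2 it was 0.09 at the high dose.

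**Figure D1:**
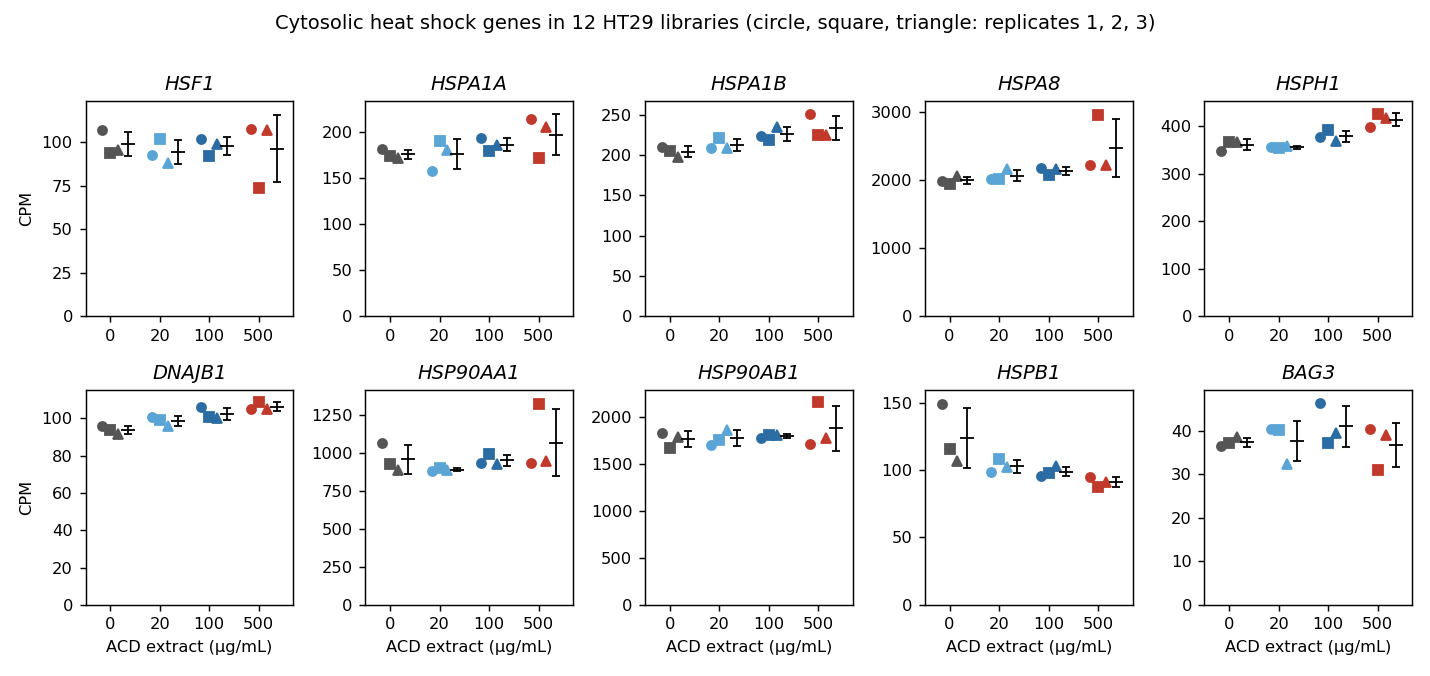
Level of each of the 10 genes in CPM (vertical axis from 0) by ACD dose in µg/mL (0 is the vehicle); each symbol is one library and the bar beside each group is the mean ± SD of 3. HSPB1 goes from 124 CPM with vehicle to 91.2 at 500 µg/mL, and high-dose replicate 2 (square) stands above the other high-dose libraries in HSPA8, HSP90AA1 and HSP90AB1 and below them in HSF1 and BAG3.

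Read as a group at the high dose, 1 of the 10 genes was lower and 0 were higher, where the test called 2.95% of all genes lower and 2.82% higher. In DESeq2 on all libraries, 4 were higher (HSPA1B, HSPA8, HSPH1 and DNAJB1) and HSPB1 was lower, where 8.46% of all genes were called. At an unadjusted p under 0.05, edgeR counted 5 of 10 genes, against 20.1% of all genes. The libraries of the groups did not overlap for 4 genes that were higher, against 10.5% of all genes, and for 1 gene that was lower, against 11.5%. The log2 fold change was above 0 for 7 of the 10, with a median of 0.16, and for 51.0% of all genes, with a median of 0.005.

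At the medium dose, edgeR called 0 of the 10 genes, with 1.01% of all genes called. An unadjusted p under 0.05 was reached by 2, HSPB1 and DNAJB1, and by 11.7% of all genes, and DESeq2 on all libraries also called 0. HSPA1B, HSPA8, HSPH1 and DNAJB1 lay above all vehicle libraries (14.5% of all genes did) and HSPB1 below them (14.1%). The largest log2 fold changes upward were 0.15 for HSPA1B and 0.13 for DNAJB1 and BAG3. At the low dose, edgeR and DESeq2 both called 0 of the 10, with 0.124% of all genes called by edgeR and 1 of the 10, HSPB1, at an unadjusted p under 0.05, against 7.95% of all genes. The libraries of all 10 genes overlapped with the vehicle, where 11.4% of all genes lay wholly above it and 9.61% wholly below. At both of these doses the 95% intervals of the 10 genes lay within a 1.5-fold change in either direction. The 3 comparisons share the vehicle libraries, so a vehicle library that is high or low moves a gene the same way in each of them.

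The high dose against the low dose uses no vehicle library. Here edgeR called 0 of the 10 genes, with 2.98% of all genes called, and 2, HSPH1 and HSPA8, had an unadjusted p under 0.05, against 15.4% of all genes. DESeq2 on all libraries called 1, HSPH1, with 4.86% of all genes. Without high-dose replicate 2, edgeR called HSPA1A and HSPH1, with 7.29% of all genes. HSPA1B, HSPA8, HSPH1, DNAJB1 and HSP90AA1 lay above all low-dose libraries, against 9.61% of all genes, and HSPB1 below them, against 10.6%. The 95% intervals of all 10 genes, with the spread again estimated over all groups together, lay within a 1.5-fold change.

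**Figure D2:**
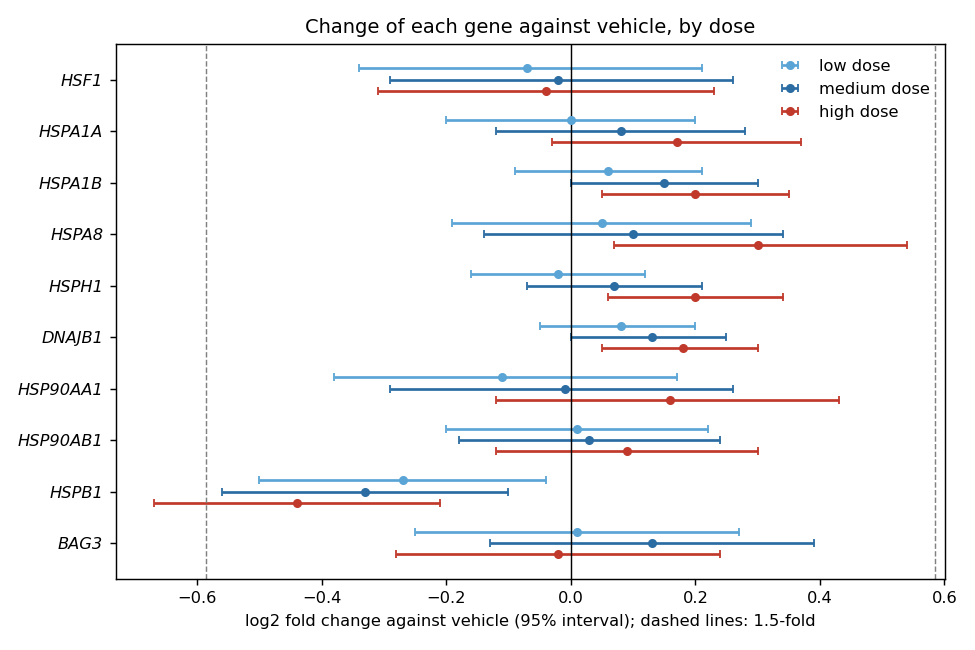
Log2 fold change against vehicle (horizontal axis) of each gene at the low, medium and high dose, with its 95% interval from edgeR; dashed lines mark a 1.5-fold change in either direction. The high-dose interval of HSPB1, −0.67 to −0.21, is the only one that crosses a dashed line, and those of HSPA1B, HSPA8, HSPH1 and DNAJB1 lie above 0 at the high dose.

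A trend over the dose rank, from vehicle to high dose, was fitted across the 12 libraries and called 5.74% of all genes. HSPB1 fell by 0.14 on the log2 scale per step (SE 0.03, adjusted p = 0.0223, edgeR). It lost this call without vehicle replicate 2 (adjusted p = 0.0556, edgeR) or high-dose replicate 3 (adjusted p = 0.0585, edgeR). The slopes of DNAJB1, HSPA1B and HSPH1 were 0.06, 0.07 and 0.07 per step, with adjusted p-values of 0.0689, 0.0721 and 0.0738, and that of HSPA8 was 0.10, with an adjusted p of 0.117, all from edgeR. HSF1 and BAG3 had slopes of −0.01 and 0.01. With the vehicle left out and log10 of the dose as the scale, the slope of HSPB1 was −0.12 per 10-fold step (adjusted p = 0.241, edgeR), and 0 of the 10 genes were called. Without high-dose replicate 2 the trend over the dose rank called 5 of the 10 (HSPA1A, HSPA1B, HSPH1, DNAJB1 and HSPB1), with 17.5% of all genes.

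High-dose replicate 2 stood apart from the other libraries in these genes and in general. Over 10626 genes, the difference of its log2 CPM from the mean of the other libraries of its group had an SD of 0.502, where the same measure was 0.102 to 0.293 in the others, and it held the fewest counts. HSF1 was at −0.54 on this scale, BAG3 at −0.36 and HSPA1A at −0.28, while HSP90AA1 was at 0.49, HSPA8 at 0.41 and HSP90AB1 at 0.31. HSPH1, DNAJB1, HSPA1B and HSPB1 lay between −0.09 and 0.06. The 25% of genes with the highest GC content had a median of −0.17 in this library and the 25% with the greatest exon length had −0.26, and the part of these in the values of the 10 genes was not tested gene by gene. Without this library, 4 genes were higher (HSPA1A, HSPA1B, HSPH1 and DNAJB1) and HSPB1 was lower at the high dose, where 18.7% of all genes were called and 9.83% were called higher. The median of the 10 log2 fold changes was then 0.14. With an offset for gene length and GC content in each library, chosen after seeing the data, HSPA1B, HSPH1 and HSPB1 were called, where 10.1% of all genes were.

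**Figure D3:**
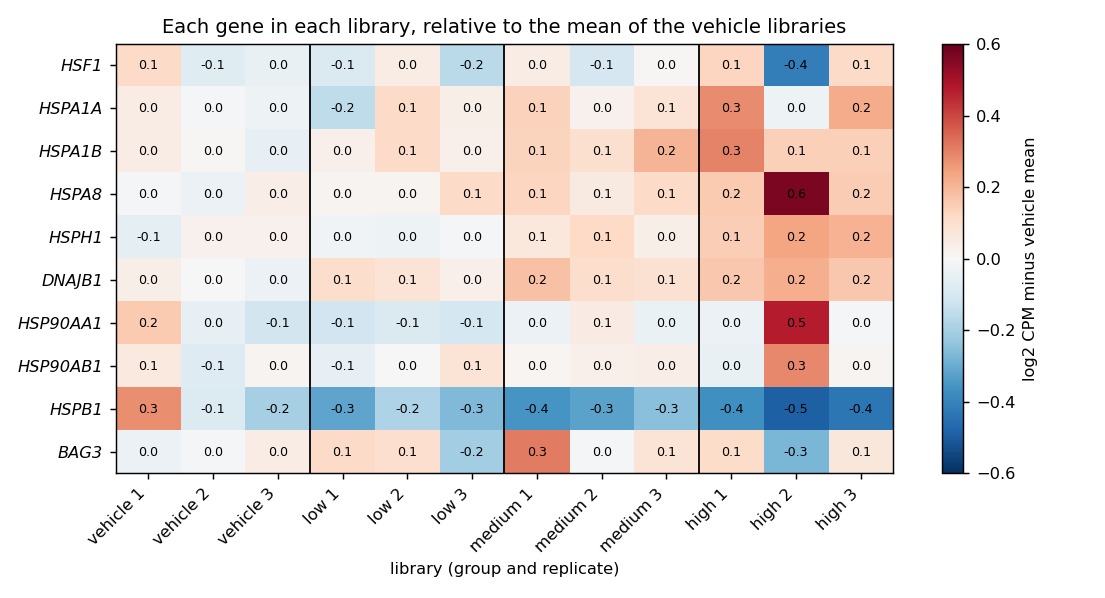
Log2 CPM of each gene (row) in each library (column) minus its mean over the vehicle libraries; red is higher, blue is lower, and the numbers give the difference. HSPB1 is lower than the vehicle mean in all treated libraries, and the column of high-dose replicate 2 holds the strongest colours, with HSPA8 and HSP90AA1 up and HSF1 down.

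Other chaperone genes of the cytosol, with further genes known to answer heat shock, were read from 9 lists of 84 genes, of which 74 were tested. At the high dose edgeR called 2 of the 74 higher, HMOX1 and ATF3, and 0 lower, where it called 2.82% of all genes higher and 2.95% lower. Neither of the pair encodes a chaperone. HMOX1, the heme oxygenase that heat, metals and oxidants induce, measured 9.69, 8.30 and 9.32 CPM with vehicle and 17.2, 22.4 and 18.4 at the high dose, a log2 fold change of 1.09 (adjusted p = 9.38e-05, edgeR). ATF3, a transcription factor of many stress responses, measured 1.82, 2.49 and 2.81 CPM with vehicle and 6.21, 7.15 and 6.36 at the high dose, a log2 fold change of 1.45 (adjusted p = 0.000106, edgeR). Both are induced through other factors than HSF1 as well. At the medium and the low dose edgeR and DESeq2 called 0 of the 74 genes, with 4 and 3 at an unadjusted p under 0.05 in edgeR, against 11.7% and 7.95% of all genes. With 500 µg/mL this number was 17, against 20.1% of all genes, and DESeq2 called 3 higher, FKBP4 in addition, and 1 lower, SLC5A3, where it called 8.46% of all genes.

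HSPA6, the HSP70 gene that is silent at rest and answers only strong heat shock, did not pass the filter on low counts. It held 0 to 10 counts per library and 53 in all, with 2, 2 and 10 in the high-dose libraries. It is named here after its values were seen. The other small heat shock genes that were matched by symbol were likewise at or near 0. HSPB2, HSPB3, HSPB6, HSPB7, HSPB8, HSPB9, CRYAA and CRYAB held at most 9 counts in any library. Of the matched small heat shock genes HSPB1 alone could be tested, and HSPB11 was not matched, so its counts were not read.

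Of the other genes of the HSF family and its binding protein HSBP1, 3 of 3 had a log2 fold change above 0 at the high dose (median 0.21), with HSF2 at 0.21 and HSBP1 at 0.02. In this list and in those of HSP70 relatives, co-chaperones, regulators, chaperonin and prefoldin, edgeR called 0 genes and DESeq2 called 1, FKBP4. The counts at an unadjusted p under 0.05 given below for each list stand against 20.1% of all genes. Among the HSP70 and HSP110 relatives, 6 of 6 tested genes had a high-dose log2 fold change above 0 (median 0.19, 2 at an unadjusted p under 0.05). HSPA4, an HSP110 protein, went from 211 to 225 CPM (0.09) and HSPA4L from 83.2 to 89.6 CPM (0.11). Of the J-domain co-chaperones, 12 of 14 lay above 0 (median 0.16, 4 at an unadjusted p under 0.05). DNAJA1, the most abundant of them, had 195 CPM with vehicle and 209 at the high dose (0.10), and DNAJB6 had 96.0 and 98.9 (0.04). Of the HSP90 co-chaperones, 14 of 15 lay above 0 (median 0.14, 2 at an unadjusted p under 0.05). PTGES3, the p23 protein that closes the HSP90 clamp, went from 508 to 562 CPM (0.15), and STIP1, which joins HSP70 to HSP90, from 257 to 287 CPM (0.16). Of the nucleotide exchange factors and HSP70 regulators, 4 of 7 lay above 0 (median 0.12, 2 at an unadjusted p under 0.05), with BAG6 at −0.06 and ST13 at 0.12.

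The 8 subunits of the cytosolic chaperonin, the ring that folds actin and tubulin, all lay above 0, with a median of 0.22. Of these, 2 were at an unadjusted p under 0.05, against 20.1% of all genes. CCT5 measured 515, 736 and 478 CPM at the high dose and 504, 489 and 485 with vehicle. CCT6A measured 416, 581 and 452 CPM at the high dose and 407, 410 and 398 with vehicle. In both genes the highest value was that of high-dose replicate 2. Prefoldin, which passes new actin and tubulin to that ring, had 6 of 6 genes above 0 (median 0.09, 0 at an unadjusted p under 0.05), and of the other heat shock responsive genes 10 of 15 lay above 0 (median 0.17). Among these, HSPD1, the mitochondrial HSP60, had a log2 fold change of 0.24 (adjusted p = 0.297, edgeR).

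Most of these medians rested on that library. Over the 9 lists, 63 of 74 genes lay above 0 with it and 42 of 74 without it, where 48.1% of all genes did. Without it the chaperonin median was 0.03, that of the HSP90 co-chaperones 0.02, that of the J-domain co-chaperones 0.02 and that of prefoldin −0.22. The medians of the HSP70 regulators and of the other heat shock responsive genes were 0.02 and −0.06. Those of the HSF list, of the HSP70 relatives and of the 10 heat shock genes were 0.11, 0.12 and 0.14. Without it edgeR called 7 of the 74 higher (9.46%, against 9.83% of all genes) and 6 lower, where 1394 of 15674 genes were lower. Those higher were HMOX1 (0.99), ATF3 (1.39), DNAJA4 (0.32), DEDD2 (0.26), FKBP5 (0.24), FKBP4 (0.20) and BAG5 (0.20). Those lower were RGS2 (−0.67), BAG1 (−0.43), PFDN5 (−0.34), SLC5A3 (−0.30), HSBP1 (−0.27) and NUDC (−0.25). Apart from HMOX1 and ATF3 these genes are named after their values were seen.

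Chaperones of other compartments were counted beside them. Of 14 tested chaperones and folding enzymes of the endoplasmic reticulum (ER), 1 was called lower at the high dose, CRELD2 (−0.35), and 0 higher, with a median of 0.13. Of 9 tested chaperones and proteases of the mitochondrion, 2 were called higher, HSPA9 (0.26), the HSP70 of the matrix, and GRPEL2 (0.49), its nucleotide exchange factor, with a median of 0.24. The same edgeR test called 2.82% of all genes higher and 2.95% lower. DESeq2 called CANX and HSPA5 of the ER higher and CRELD2 lower, and in the mitochondrion DNAJA3, GRPEL2, HSPA9 and TRAP1 higher, against 8.46% of all genes. With high-dose replicate 2 left out, where 18.7% of all genes were called, edgeR called CANX and HYOU1 higher and CRELD2 and SDF2L1 lower, and 5 of the 9 mitochondrial genes higher (DNAJA3, GRPEL2, HSPA9, LONP1 and TRAP1). The ER median was then −0.05 and the mitochondrial median 0.18. These genes are named after their values were seen. The share of counts from the mitochondrial ribosomal RNAs was 11.27% to 12.52% in the high-dose libraries and 1.14% to 1.22% with vehicle, and the scaling factors of edgeR were 0.8868 to 0.961 at the high dose and 0.9959 to 1.0381 with vehicle. Leaving out chromosome M kept the call of HSPB1, at −0.44.

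**Figure D4:**
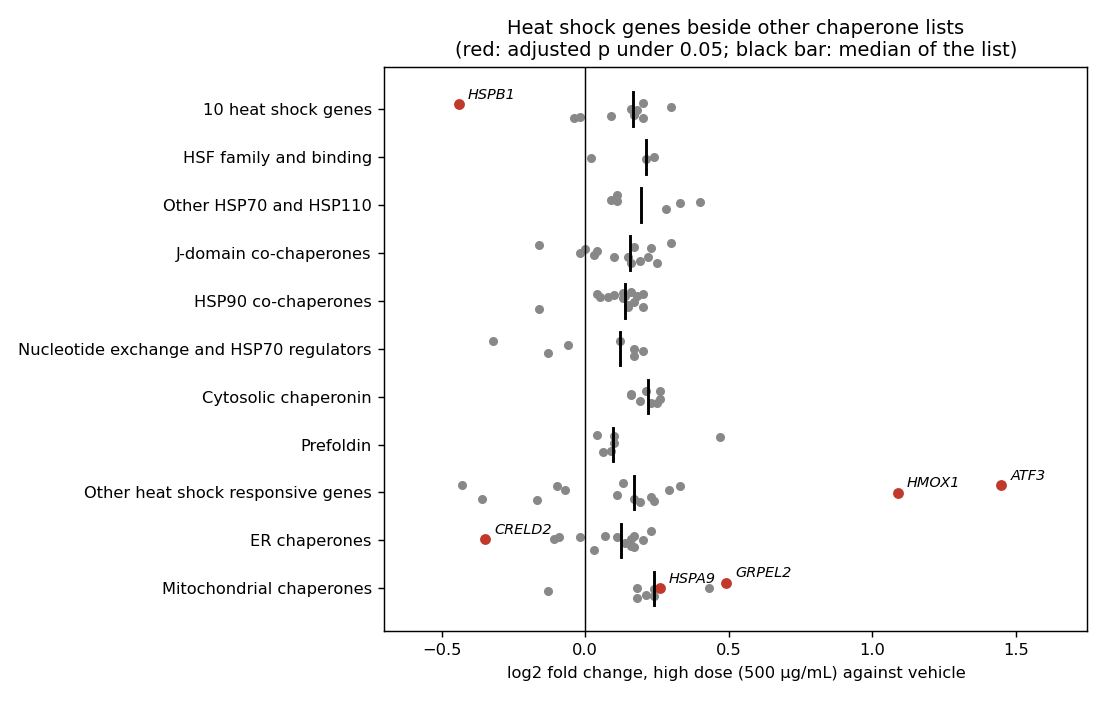
Log2 fold change at 500 µg/mL against vehicle (horizontal axis) for each tested gene of the 10 heat shock genes and of the other chaperone lists; red points have an adjusted p under 0.05 and black bars are list medians. Of the cytosolic lists HSPB1 is called lower and HMOX1 and ATF3 higher, and the medians of all lists lie between 0.09 and 0.24.

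The genes most like 4 of the profiles were found as those with the smallest root mean square difference in log2 CPM over the 12 libraries, each centred on the vehicle mean, among 10616 genes. Nearest to the sum of HSPA1A and HSPA1B were POLDIP2 (0.034), B4GALT2 (0.038) and GLB1L2 (0.042), with a median of 0.20 over all genes. NAA15 (0.036), TXLNG (0.037) and POMGNT1 (0.040) were nearest to HSPH1. FAM219B (0.034), SEC61A1 (0.037) and USP1 (0.042) were nearest to DNAJB1. HSPB1 had no gene as near: MPHOSPH8 (0.070), MARCKSL1 (0.079) and SPRY1 (0.083) came first, with a median of 0.36. No member of the chaperone lists was among these 12 genes.

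The identity and depth of the libraries bear on all of these values. Library totals ran from 15941255 to 33866644 expected counts, and the 10 genes were counted 437 to 72265 times in a library. The biological coefficient of variation over all genes was 11.2%. The counting error of a member in 1 library (Poisson SD) was 0.372% to 4.78%, the latter for BAG3, and for BAG3 with vehicle the spread between libraries (2.69% CV) was within that range. Of 13 markers of HT29 and colon epithelium, 12 were at 1 CPM or more in every library. CDX1 was at 0.923 to 1.54 CPM. Of 15 markers of other cells, 11 were under 1 CPM in every library, among them the leukocyte gene PTPRC and the fibroblast gene COL1A2, which was at 0. LYZ, which epithelial lines of the colon can also make, was at 1262 to 1886 CPM. The summed level of these 15 genes, nearly all of it LYZ, was 1660 to 1840 CPM with vehicle and 1275 to 1899 at the high dose. Of the markers that passed the filter edgeR called 3 at the high dose: the macrophage gene CD68 higher (0.57, adjusted p = 0.0151), CEACAM5 of the epithelial list higher (0.70, adjusted p = 0.0132) and TFF3 of that list lower (−0.67, adjusted p = 0.0387). Their part in the values of the 10 genes was not tested. Bulk libraries of this kind do not tell a lower level in each cell from fewer cells that express a gene.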

How the data were processed

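The labels place 12 HT29 libraries in 4 groups by title. Their titles name ACD, although a treatment note in the same labels speaks of Poria cocos. After adapter trimming by Trim Galore, the authors aligned reads to GRCh38 using STAR and estimated counts per gene using RSEM. The submitters' processing notes give Trim Galore 0.6.5, STAR 2.7.3a and RSEM 1.3.3. The paper's methods name later versions of the first pair. The library kit keeps strand, and the strand setting of RSEM is not given in the sources used here, so genes overlapping on opposite strands are uncertain. The deposited expected counts were not normalized and were rounded to whole numbers.

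Genes were kept with filterByExpr and scaled with TMM, and the 4 groups were fitted across all 15374 genes with the robust quasi-likelihood test of edgeR 4.0.16 in R 4.3.3, with Benjamini-Hochberg adjustment over all genes and a threshold of 0.05. CPM use the TMM library sizes, log2 CPM a prior count of 2, and standard errors come from the F statistic. The study's methods name the Wald test of DESeq2, which was run in version 1.42.0 as an alternative. No pair of libraries was a duplicate. On simulated counts for 15343 genes, edgeR called 72 of 100 genes changed 2-fold at the high dose and 45 of 100 changed 1.5-fold, with 5 wrong calls. The changed genes were drawn at random from all genes that passed the filter, and each gene had the same simulated spread in every group.

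Of the deposited IDs, 93.2% were in GENCODE release 44, which gave coordinates and exon lengths. The gene HSPB11 of one list had no match by symbol. Named are the 10 genes, the genes of the wider lists called at the high dose, and up to 2 others per list with the highest level, of which 1 is not reported here. Other genes were named after their values were seen, as stated there. The 10 genes and all lists were chosen with earlier results of these data known. Alternatives were DESeq2, fits to 2 groups, other scaling and filters, chromosome M left out, the replicate number as a block, an offset for gene length, the summed HSP70 pair and each library left out. Chosen after seeing the data were the offset for GC content, 2 libraries left out together and the lists without high-dose replicate 2. Python 3.11.15 (pandas 2.3.3) made the tables.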

Additional observations from a re-analysis of the deposited data

How the results depend on the processing

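Most alternatives changed one choice. DESeq2 on 2 groups changed the tool and the libraries, 1 alternative left out a pair of libraries, and 1 had offsets for both length and GC content. The number of the 10 members called at the high dose against vehicle was 1, with 887 of 15374 genes called. It became 0 with a 1.5-fold limit, in edgeR or DESeq2 on 2 groups only and with the replicate block. It was 3 with the offset for gene length and GC content, with 1533 of 15196 genes called. In DESeq2 on all libraries it was 5 (1300 of 15374 genes), as without vehicle replicate 1 and high-dose replicate 2 (2753 of 15740). It ranged from 0 to 5 with each library left out, with 5 without high-dose replicate 2 (2934 of 15674 genes). At the medium dose it became 1 in DESeq2 on 2 groups (787 of 14927 genes). At the high dose against the low dose it went from 0 to 1 in DESeq2 on all libraries (747 of 15374 genes) or 2 groups (376 of 14967). It was also 1 with the offset for length and GC (783 of 15196), and ranged from 0 to 2 with each library left out. The members called by the trend were 1 (882 of 15374 genes), then 5 in DESeq2 (1433 of 15374). They were 2 with the offset for length (1065 of 15196) and 4 with that for length and GC (1476 of 15196). They were 0 on the log10 dose without vehicle, and 0 to 5 with each library left out. The 5 came without high-dose replicate 2 (2744 of 15674 genes). The other alternatives left these counts as they were, and the cause of the differences was not tested.

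Libraries of the same replicate number did not deviate alike in most cases. Over 18 pairs of groups and numbers, the correlation of the deviations ran from −0.5 to 0.37, with 5 over 0.1. These deviations hold shifts of whole libraries, such as that of high-dose replicate 2, so they cannot settle whether libraries were paired. With the replicate number as a block, HSPB1 was at −0.44 at the high dose (adjusted p = 0.0587, edgeR) and the count of all genes called went from 887 to 629. The trend of HSPB1 kept its call with the block (adjusted p = 0.0414, edgeR).

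Over these alternatives, directions turned only for log2 fold changes that were not called, the largest being 0.16 for HSP90AA1 at the high dose. At the high dose HSF1 became 0.18 without vehicle replicate 1 and high-dose replicate 2 and ranged from −0.13 to 0.12 with each library left out. BAG3 became 0.02 with either offset, 0.07 without both libraries, and ranged from −0.08 to 0.09. HSP90AA1 ranged from −0.03 to 0.25 and HSP90AB1 from −0.02 to 0.16. At the medium dose HSF1 ranged from −0.05 to 0.04, HSP90AB1 from −0.0042 to 0.06 and HSP90AA1 from −0.06 to 0.07, and HSP90AA1 was at 0.0056 with no filter and 0.00058 with the offset for length and GC. At the low dose HSPA1A ranged from −0.05 to 0.07, HSP90AB1 from −0.03 to 0.04 and BAG3 from −0.05 to 0.11. At the high against the low dose HSF1 ranged from −0.06 to 0.18, HSP90AB1 from −0.03 to 0.15 and BAG3 from −0.12 to 0.07. In the trend HSF1 ranged from −0.03 to 0.03, HSP90AB1 from −0.00069 to 0.04 and BAG3 from −0.0036 to 0.04, and on the log10 dose HSF1 was at 0.02 and BAG3 at −0.02.

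With 3 libraries per group, 45 of 100 simulated 1.5-fold changes were called, and smaller changes were not simulated. At the high dose, DESeq2 called 1300 of all genes, edgeR on 2 groups 181, and edgeR without high-dose replicate 2 called 2934.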
